A study of Mus musculus and Homo sapiens with 9 samples.

Results

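Peaks that lay beyond a promoter but still close to a gene start were described here: those with a midpoint over 1 kb and at most 3 kb from the nearest annotated transcription start site (TSS). TSSs of every gene type were taken from GENCODE (release M21 for mm10 and 44 for hg38), and each peak was called upstream or downstream by the strand of its nearest TSS. The rule used position only. It found 11555 of the 102544 peaks in 9 CUT&Tag lists, of which 5286 were upstream and 6269 downstream. Peaks with a midpoint within 1 kb of a TSS are called promoter peaks below, and those over 3 kb away are called distal peaks.

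The study asked how MCM8, a helicase of the MCM family that acts in homologous recombination, and the RNA helicase DDX5 affect R-loops. In mouse embryonic fibroblasts (MEFs), S9.6 was used on Mcm8 wildtype cells (WT), on Mcm8 knockout cells (KO), on Ddx5 knockdown cells (shDdx5) and on cells with a control shRNA (shControl), and a wildtype MEF library had no primary antibody. The Mcm8 MEFs came from trunks of mid-gestation embryos and had been immortalised with SV40, and the shRNA against Ddx5 was carried by an adenovirus. HEK293, a human embryonic kidney line described as wildtype, was profiled with S9.6 alone, with S9.6 after transfection of an RNH1 plasmid (by which the study means RNase H1), with anti-FLAG after transfection of a FLAG-MCM8 plasmid, and with mouse IgG. Each group held 1 library. The lists are named WT, KO, shControl, shDdx5, no-antibody, S9.6, RNH1, FLAG-MCM8 and IgG. Whether the HEK293 cells of the S9.6 and IgG libraries received an empty plasmid is not given in the sources used here.

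An R-loop forms when RNA pairs with the template strand of DNA and leaves the other strand single. R-loops are known to form over the start of transcribed genes, above all where the non-template strand is rich in G, and from there they can reach into the first intron. S9.6 binds RNA-DNA hybrids, and RNase H1 degrades the RNA in them. In CUT&Tag an antibody brings a transposase to its target, and the tagged DNA is sequenced, so a peak is a place where tagged fragments pile up above the local background.

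With 1 library per group no p-value was computed. Intervals are 95% intervals for counting error alone, and a difference beyond them sets 2 libraries apart, not 2 conditions. The lowest −log10 p was 3.0 in the MEF lists and 5.0 in the HEK293 lists, so lists of the 2 species were not set against each other. The depth recovered from the peaks was 5729 to 7001 fragments per Mb in the MEF lists made with S9.6, 719.8 in no-antibody, and 8314 to 11050 in HEK293. Of 12 fibroblast marker genes, 2 or 3 had a peak within 3 kb of a TSS in each MEF list made with S9.6 (Vim in all 4) and 0 in no-antibody. None had a member, and Krt18, an epithelial keratin gene, had 1 in WT.

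The DNA under 7 summits is printed for members of 4 sets described below. Each came from the 3 members with the highest −log10 q of its set and side, so these are extremes and not typical members. Each run is 81 bp of the reference around the summit, written 5′ to 3′ on the strand of the nearest TSS, with runs of 3 or more G or C in capitals. Gm13036 (chr4:146056489-146056569, plus strand, mm10, upstream and intergenic) and Pdlim7 (chr13:55510933-55511013, minus strand, mm10, in a later intron) stand for WT members found in all 4 MEF lists made with S9.6 and not in no-antibody:
Gm13036: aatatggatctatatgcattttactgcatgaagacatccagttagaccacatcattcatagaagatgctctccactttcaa
Pdlim7: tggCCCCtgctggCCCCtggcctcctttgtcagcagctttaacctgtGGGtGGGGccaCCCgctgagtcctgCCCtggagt

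Cuedc1 (chr11:88180995-88181075, plus strand, mm10, upstream and in an intron of a longer Cuedc1 transcript) and Gm47301 (chr4:149820641-149820721, plus strand, mm10, downstream and intergenic) stand for KO members without a WT peak whose place was also gained in shDdx5:
Cuedc1: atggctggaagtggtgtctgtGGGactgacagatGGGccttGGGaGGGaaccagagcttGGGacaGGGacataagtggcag
Gm47301: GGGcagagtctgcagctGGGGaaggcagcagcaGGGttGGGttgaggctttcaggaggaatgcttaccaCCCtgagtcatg

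CCDC183 (chr9:136803031-136803111, plus strand, hg38, upstream and in an intron) and ENSG00000231961 (chr20:5967896-5967976, plus strand, hg38, downstream of a pseudogene and inside an MCM8 intron) stand for FLAG-MCM8 members that met an S9.6 peak but none of IgG:
CCDC183: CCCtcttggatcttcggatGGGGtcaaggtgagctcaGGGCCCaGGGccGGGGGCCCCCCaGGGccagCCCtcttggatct
ENSG00000231961: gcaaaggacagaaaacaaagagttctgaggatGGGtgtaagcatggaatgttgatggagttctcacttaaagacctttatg

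CNFN (chr19:42387303-42387383, minus strand, hg38, in a later coding exon) stands for S9.6 members without an RNH1 peak:
CNFN: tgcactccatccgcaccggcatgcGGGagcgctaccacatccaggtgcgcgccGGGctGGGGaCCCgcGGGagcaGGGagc

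The 7 runs differed widely. The Gm13036 run held no run of 3 G or C and was 35.8% GC, and that of ENSG00000231961 was 40.7% GC. The Gm13036 peak lies in a repeat. The ENSG00000231961 peak, inside MCM8, had a fold of 21.6 in FLAG-MCM8, a library that received an MCM8 plasmid, against a member median of 4.62. CNFN was 74.1% GC with 9 CpG, and CCDC183 was 69.1% GC with 5 runs of G and 4 of C. The Cuedc1 run was 43.2% G and 14.8% C on the strand of its TSS, the largest imbalance toward G of the 7.

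Peaks 1 to 3 kb from a TSS formed a similar slice of every list. They made up 11.5% of the WT list (748 of 6481, 10.8 to 12.3), 10.2% of KO (977 of 9605, 9.58 to 10.8), 10.9% of shControl (1337 of 12259), 9.02% of shDdx5 (1062 of 11768) and 10.0% of no-antibody (432 of 4314). In HEK293 they made up 12.2% of S9.6 (1841 of 15147), 12.6% of RNH1 (1578 of 12497), 12% of FLAG-MCM8 (1589 of 13295) and 11.6% of IgG (1991 of 17178). The genome at that distance is 9.45% of mm10 (250.3 Mb) and 10.5% of hg38 (307 Mb). The share of no-antibody lay within the range of the other MEF lists, and that of IgG was the lowest in HEK293.

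Density separated the lists better than share did. The WT list held 2.99 members per Mb against 1.49 distal peaks per Mb, 2.01 times as many (1.86 to 2.18). The ratio was 1.69 in KO (1.58 to 1.81), 1.68 in shDdx5 (1.58 to 1.80) and 1.58 in shControl (1.49 to 1.67). It was 1.10 in no-antibody (0.993 to 1.21). In HEK293 the same ratio was 2.16 in S9.6 (2.05 to 2.27) and 2.23 in RNH1 (2.11 to 2.36), against 1.41 in FLAG-MCM8 (1.34 to 1.49) and 1.17 in IgG (1.11 to 1.22). Members were denser than distal peaks beyond counting error in 8 lists, with no-antibody as the exception.

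The fall from the promoter was steep where the antibody list had many promoter peaks. Promoter density was 5.03 times member density in WT, 5.55 in KO, 7.45 in shDdx5 and 3.90 in shControl, against 1.31 in no-antibody (1.14 to 1.51). It was 5.20 times in S9.6, 4.93 in RNH1, 2.59 in FLAG-MCM8 and 1.28 in IgG (1.21 to 1.37).

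**Figure D1:**
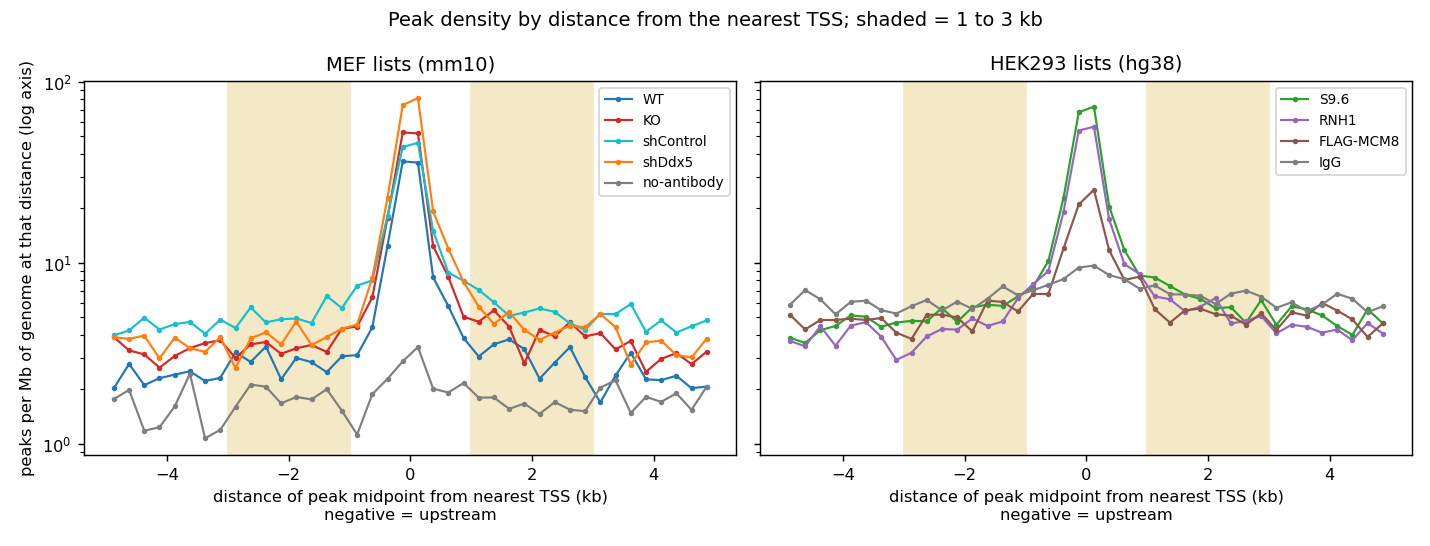
Peaks per Mb of genome (log axis) in bins of distance from the nearest TSS (kb, negative upstream), with 1 line per list, MEF lists on the left and HEK293 lists on the right; the 1 to 3 kb zones are shaded. Most of the fall lies within the central peak, and the lines change less across the shaded zones, where no-antibody is lowest of the MEF lists in every bin and the HEK293 lines cross, with S9.6 or IgG highest in most bins.

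Within the zone, density still leaned toward the TSS in some lists. Downstream, S9.6 held 7.89 peaks per Mb from 1 to 1.5 kb and 5.44 from 2.5 to 3 kb, a ratio of 1.45 (1.22 to 1.73). Upstream the S9.6 ratio was 1.29 (1.06 to 1.58), and RNH1 gave 1.57 (1.26 to 1.96) upstream and 1.30 (1.08 to 1.57) downstream. In shControl the downstream ratio was 1.48 (1.19 to 1.83), and in FLAG-MCM8 the upstream ratio was 1.27 (1.04 to 1.56). The other 12 of these 18 ratios, all those of WT, KO, shDdx5, no-antibody and IgG among them, had intervals that held 1.

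Median folds in S9.6 and WT differed less across the inner limit of the zone than across the outer one, with no interval computed. In S9.6, 127 members lay within 100 bp inside the inner limit and 131 promoter peaks within 100 bp outside it, with median folds of 3.96 and 3.99. At the outer limit, 75 members just inside had a median fold of 4.15, and 52 distal peaks just outside had 3.86. In WT the corresponding medians at the inner limit were 3.45 for 47 members and 3.32 for 50 promoter peaks. At the outer limit they were 3.52 for 37 members and 3.23 for 23 distal peaks. The outer medians also fell in shControl (3.56 inside and 3.31 outside), but not in KO (3.40 and 3.41) or IgG (4.06 and 4.15).

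The rule splits members by strand, and the genome offers slightly more downstream than upstream sequence (51.2% in mouse and 51.8% in human). Per Mb, the downstream side was denser in KO, 1.23 times the upstream side (1.09 to 1.40), in shDdx5, 1.2 times (1.06 to 1.35), in S9.6, 1.17 times (1.07 to 1.28), and in RNH1, 1.23 times (1.11 to 1.36). In WT the ratio was 1.07 (0.928 to 1.24), in shControl 1.05 (0.946 to 1.17), in no-antibody 0.901 (0.746 to 1.09), in FLAG-MCM8 1.00 (0.910 to 1.11) and in IgG 1.08 (0.990 to 1.18).

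The difference between lists was tested on the downstream share itself. The share was 56.4% in KO and 52.9% in WT, a difference of 3.46 percentage points that was within counting error (-1.28 to 8.18), and it was 55.7% in shDdx5 and 52.5% in shControl, a difference of 3.24 points (-0.777 to 7.23). Against no-antibody at 48.6%, KO was 7.79 points higher (2.14 to 13.4) and shDdx5 7.13 points higher (1.55 to 12.7). FLAG-MCM8, at 51.9%, was 3.76 points below S9.6 (-7.09 to -0.412). With all transcript TSSs, a downstream excess was therefore seen in KO and shDdx5, but neither list stood apart from its own control in it. The contrasts depended on the TSSs used. With protein-coding transcripts only, the share was 56.1% in KO, 56.3% in WT, 62.0% in shDdx5, 57.4% in shControl and 53.3% in no-antibody. It was 56.6% in FLAG-MCM8 and 57.7% in S9.6. The gaps of KO to no-antibody and of FLAG-MCM8 to S9.6 were then smaller, and that of shDdx5 to no-antibody was not. With only gene-record starts as TSSs, the share was 61.2% in shDdx5 (58.0 to 64.3) and 55.1% in shControl (52.0 to 58.2). That gap was wider than with all transcripts, and no interval was computed for it. The share was 58.8% in KO and 57.7% in WT, a narrower gap than with all transcripts.

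**Figure D2:**
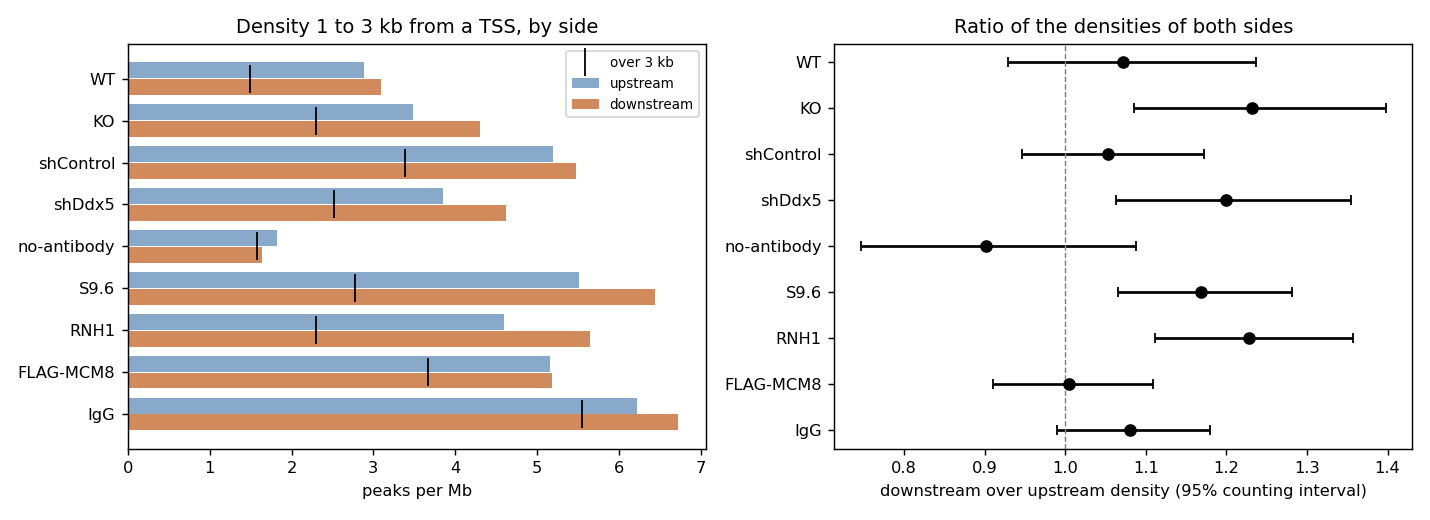
Left, members per Mb upstream and downstream of the nearest TSS in each list, as bars that start at 0, with a vertical mark for the distal density; right, the ratio of the downstream to the upstream density with its 95% counting interval. The interval lies above 1 in KO, shDdx5, S9.6 and RNH1 and holds 1 in the other 5 lists.

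Members were mostly inside genes. By the annotation at the midpoint, introns held 59.0% to 65.1% of the members of each list and intergenic sequence 20% to 30.8%. Among points spaced evenly over the same zone of the genome, introns held 53.3% in mouse and 67.0% in human, and intergenic sequence 35.6% and 22.7%. Coding exons held 7.17% of S9.6 members (6.08 to 8.44) and 7.03% of RNH1 members, against 3.42% of IgG members (2.70 to 4.31) and 2.36% of the human zone. In MEFs the coding share was 4.81% in WT, 5.12% in KO, 4.99% in shDdx5 and 5.39% in shControl, against 3.24% in no-antibody and 2.75% of the mouse zone.

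Downstream members fell first of all in the first intron of the transcript that starts at the nearest TSS. That share was 44.4% in WT, 40.5% in KO, 44.9% in shDdx5 and 42.7% in shControl, against 40.5% in no-antibody and 38.9% of the downstream zone of the mouse genome. It was 42.4% in S9.6, 38.4% in RNH1, 42.1% in FLAG-MCM8 and 47.8% in IgG, against 47.7% of the human zone. Later exons held 9.27% of downstream S9.6 members and 8.57% of those of RNH1, against 4.31% of the human zone, and 8.33% in WT and 8.71% in KO against 4.78% of the mouse zone.

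Upstream did not always mean outside the gene. Of upstream members, 40.1% in WT, 39.2% in KO, 37.4% in shDdx5 and 37.3% in shControl lay within the gene of their own TSS, because another transcript of that gene starts earlier, as at Cuedc1. The share was 31.5% in no-antibody and 29.5% of the upstream zone of the mouse genome. In HEK293 it was 47.3% in S9.6, 43.7% in RNH1, 45.4% in FLAG-MCM8 and 42.6% in IgG, against 41.4% of the human zone. When only the start of the gene record counted as a TSS, 56.0% to 69.7% of the members stayed in the zone, and the rest became distal.

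The nearest TSS belonged to a protein-coding gene for 66.8% of WT members, 67.8% in KO, 66.3% in shDdx5, 64.9% in shControl and 56.9% in no-antibody, against 55.4% of the mouse zone. In HEK293 the share was 63.9% in S9.6, 64.1% in RNH1, 56.6% in FLAG-MCM8 and 53.7% in IgG, against 53.0% of the human zone. Promoter peaks went further, with 79.0% in S9.6, 71.7% in FLAG-MCM8 and 60.1% in IgG.

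Most members came without a peak at the promoter of the same gene, but so did most protein-coding genes. Of all protein-coding genes, 11.3% in WT, 16% in KO, 23.1% in shDdx5, 14.7% in shControl and 1.24% in no-antibody had a promoter peak. In HEK293 the shares were 30.1% in S9.6, 24.7% in RNH1, 12% in FLAG-MCM8 and 5.6% in IgG. The shares of members lay near these, although their nearest genes include other gene types. In the same list, the gene of the nearest TSS had a promoter peak for 10.2% of WT members, 14.6% in KO, 21.7% in shDdx5, 14.7% in shControl and 1.16% in no-antibody, and for 26.1% in S9.6, 21.4% in RNH1, 11.1% in FLAG-MCM8 and 5.78% in IgG. Peaks 3 to 5 kb from a TSS gave close values, such as 11.9% in WT, 12.3% in KO and 22.9% in S9.6. In WT the share was 13.6% for downstream members (10.6 to 17.4) and 6.25% for upstream ones (4.16 to 9.28). The intervals of both sides overlapped in the other 8 lists, for example 14.5% downstream and 14.8% upstream in KO and 26.4% and 25.7% in S9.6. The promoter of the nearest gene carried an S9.6 peak for 23.7% of FLAG-MCM8 members (21.6 to 25.8) and 22.3% of IgG members (20.5 to 24.1), and these intervals overlap.

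The sequence under the members differed from that of promoter peaks. Over 201 bp around the summit, the median GC content of members was 50.7% in WT, 50.2% in KO, 50.7% in shDdx5, 49.8% in shControl and 45.0% in no-antibody, against 43.3% of the mouse zone. In HEK293 it was 57.7% in S9.6, 57.7% in RNH1, 53.2% in FLAG-MCM8 and 48.3% in IgG, against 42.3% of the human zone. Promoter peaks had medians of 62.7% in WT and 64.2% in S9.6, and distal peaks 48.8% and 54.2%.

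CpG-rich windows, those with GC above 55% and an observed-to-expected CpG ratio above 0.6, were far more frequent in promoter peaks than in members. Of members, 3.34% in WT, 3.28% in KO, 5.18% in shDdx5, 2.54% in shControl and 0.926% in no-antibody were CpG-rich, against 58.0% of WT promoter peaks. The shares were 7.77% in S9.6, 6.34% in RNH1, 4.09% in FLAG-MCM8 and 2.61% in IgG, against 58.4% of S9.6 promoter peaks. The mouse zone held 0.497% and the human zone 1.45% of such windows.

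**Figure D3:**
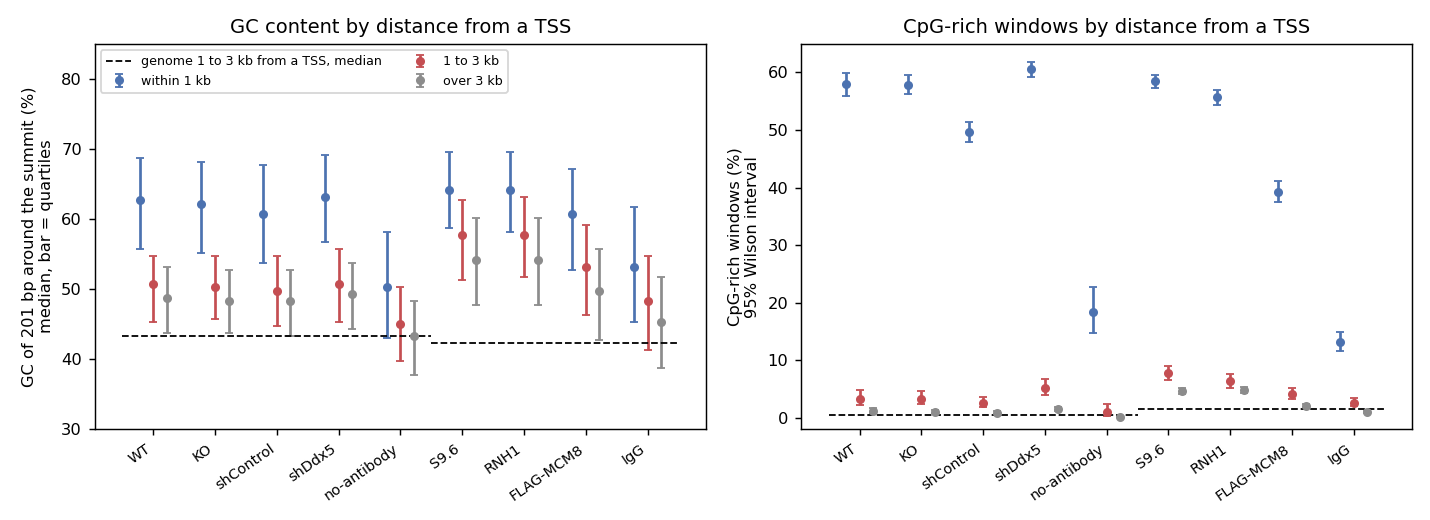
Left, GC content (%) of 201 bp around the summit, as the median with the quartiles, for promoter, 1 to 3 kb and distal peaks of each list; the dashed line is the median of the genome 1 to 3 kb from a TSS. Right, the share of CpG-rich windows (%) with its 95% Wilson interval; the dashed line is the share in the same zone of the genome. Members sit between promoter and distal peaks in GC, and close to distal peaks in CpG-rich windows.

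G and C were balanced on the strand of the TSS. More G than C was found in 49.6% to 53.2% of a list's members, against 51.4% of the mouse and 51.6% of the human zone. Promoter peaks gave 55.5% to 58.6%, with no-antibody at 56.7% and IgG at 55.7%. Of genome windows within 1 kb of a TSS, 54.4% in mouse and 54.3% in human held more G than C. The letters GGGG, read on the strand of the TSS, were in 54.1% of WT windows, 52.7% in KO, 50% in shDdx5, 51.2% in shControl and 41.2% in no-antibody, and in 67.0% in S9.6, 65.8% in RNH1, 56.8% in FLAG-MCM8 and 49.0% in IgG. The reverse complement, CCCC, was nearly as frequent. It was in 49.9% of WT windows, 50.3% in KO, 49.3% in shDdx5, 48.7% in shControl and 41.9% in no-antibody. In HEK293 it was in 62.8% in S9.6, 64.1% in RNH1, 56.7% in FLAG-MCM8 and 47.1% in IgG. Of windows of that length taken every 1000 bp in the zone, 36.9% in mouse and 36.4% in human held GGGG, and 36.4% and 35.5% held CCCC. A match describes the letters only.

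Members were weaker than promoter peaks in most lists. In the MEF lists made with S9.6 the median fold over the local background was 3.33 to 3.47 for members and 3.68 to 3.84 for promoter peaks. The median pileup at the summit of members was 9 to 10 fragments in these lists and 3 in no-antibody, and in HEK293 it was 20 in S9.6, 22 in RNH1, 14 in FLAG-MCM8 and 20 in IgG. Of WT members 22.1% had a q no higher than 0.05, and the share was 26.9% in KO, 48.0% in shDdx5, 25.1% in shControl and 7.87% in no-antibody. Few fragments thus stood behind a typical member, which limits what the overlap of a pair of lists can show.

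The KO list held more members than the WT list, 977 against 748, a ratio of 1.31 (1.19 to 1.44), at a depth of 5729 fragments per Mb in KO and 6490 in WT. Upstream the ratio was 1.21 (1.05 to 1.39) and downstream 1.39 (1.22 to 1.58). Promoter peaks gave 1.44 and distal peaks 1.55, so the share of members was lower in KO by 1.37 points (-2.36 to -0.392). With the 4314 strongest peaks of each list the direction turned, to 341 members in KO and 442 in WT (0.771). That cut makes the lists equal in size, so its ratio restates the shares alone. With a fold of at least 4 there were 137 members in KO and 88 in WT, a ratio of 1.56 (1.19 to 2.03). At a q of 0.05 or lower there were 263 and 165, a ratio of 1.59 (1.31 to 1.94). The direction of this ratio thus depended on whether the lists were cut to equal size.

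Few KO members lay where WT had a peak. Of 977 members, 71 (7.27%) overlapped a WT peak by at least 1 bp, against 16.5% of all KO peaks, 33.7% of promoter peaks and 6.62% of distal peaks. Members differed from distal peaks by 0.651 points (-0.978 to 2.56). In the other direction 10.0% of WT members had a KO peak, against 24.5% of all WT peaks. In this overlap members were close to distal peaks and far below promoter peaks. Of the 71, 67 met a WT peak that was itself 1 to 3 kb from a TSS.

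In the Ddx5 knockdown the members went the other way from the promoters. The shDdx5 list held 1062 members against 1337 in shControl, a ratio of 0.794 (0.733 to 0.861), at depths of 7001 and 6822 fragments per Mb. Promoter peaks gave 1.52 and distal peaks 0.744. Upstream the ratio was 0.740 (0.657 to 0.834) and downstream 0.843 (0.756 to 0.941). The direction depended on the threshold: at a q of 0.05 or lower there were 510 members in shDdx5 and 335 in shControl, a ratio of 1.52 (1.33 to 1.75).

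Of the 1062 shDdx5 members, 146 (13.7%) overlapped a shControl peak, against 20.2% of all shDdx5 peaks. Members exceeded distal peaks (9.56%) by 4.19 points (2.1 to 6.52) and were below promoter peaks (33.3%). Of shControl members 10.9% had a shDdx5 peak, against 19.4% of all shControl peaks. KO members met a shDdx5 peak in 11.3% of cases, against 26.5% of all KO peaks and 9.0% of distal ones, a difference from distal of 2.26 points (0.252 to 4.52). The no-antibody list met 0.802% of WT members (1.23% of all WT peaks), 0.819% of KO members (1.15%), 0.972% of shControl members (0.832%) and 0.942% of shDdx5 members (1.06%).

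In HEK293, RNH1 held 1578 members and S9.6 1841, a ratio of 0.857 (0.801 to 0.917) at depths of 11050 and 10395 fragments per Mb. Promoter peaks gave 0.813 and distal peaks 0.828, and the share of members differed by 0.473 points (-0.306 to 1.26). The ratio over all peaks was 0.825. With the 12497 strongest peaks of each list, a cut that makes the lists equal in size, the ratio was 1.08 and restates the shares alone.

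Of the 1841 S9.6 members, 378 (20.5%) overlapped an RNH1 peak, against 28.9% of all S9.6 peaks, 44.1% of promoter peaks and 16.3% of distal ones, 4.25 points above distal (2.26 to 6.35). Of RNH1 members 23.2% met an S9.6 peak, against 35.1% of all RNH1 peaks. The IgG list met 6.08% of S9.6 members, against 5.49% of all S9.6 peaks, and S9.6 met 5.68% of IgG members, against 4.83% of all IgG peaks. S9.6 members met an IgG peak more often than S9.6 promoter peaks did (3.57%), by 2.51 points (1.40 to 3.77), but not more often than distal S9.6 peaks (7.20%), with a difference of -1.12 points (-2.31 to 0.209).

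FLAG-MCM8 had 1589 members and IgG 1991, a ratio of 0.798, and their shares differed by 0.361 points (-0.366 to 1.09). FLAG-MCM8 had more promoter peaks than IgG, with a ratio of 1.61, and fewer distal peaks, with 0.661. An S9.6 peak met 161 of the 1589 members (10.1%), against 13.5% of all FLAG-MCM8 peaks, 36.8% of promoter peaks and 6.68% of distal ones, 3.45 points above distal (1.96 to 5.11). An RNH1 peak met 10.6%, against 12.9% of all, and an IgG peak 5.98%, against 5.01% of all. From the side of S9.6, 9.40% of members had a FLAG-MCM8 peak, against 11.8% of all S9.6 peaks. The S9.6 share was 15.5% for promoter peaks and 8.78% for distal ones, and members and distal peaks differed by 0.619 points (-0.814 to 2.18), so members stood above distal peaks from the side of FLAG-MCM8 and not beyond counting error from the side of S9.6.

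**Figure D4:**
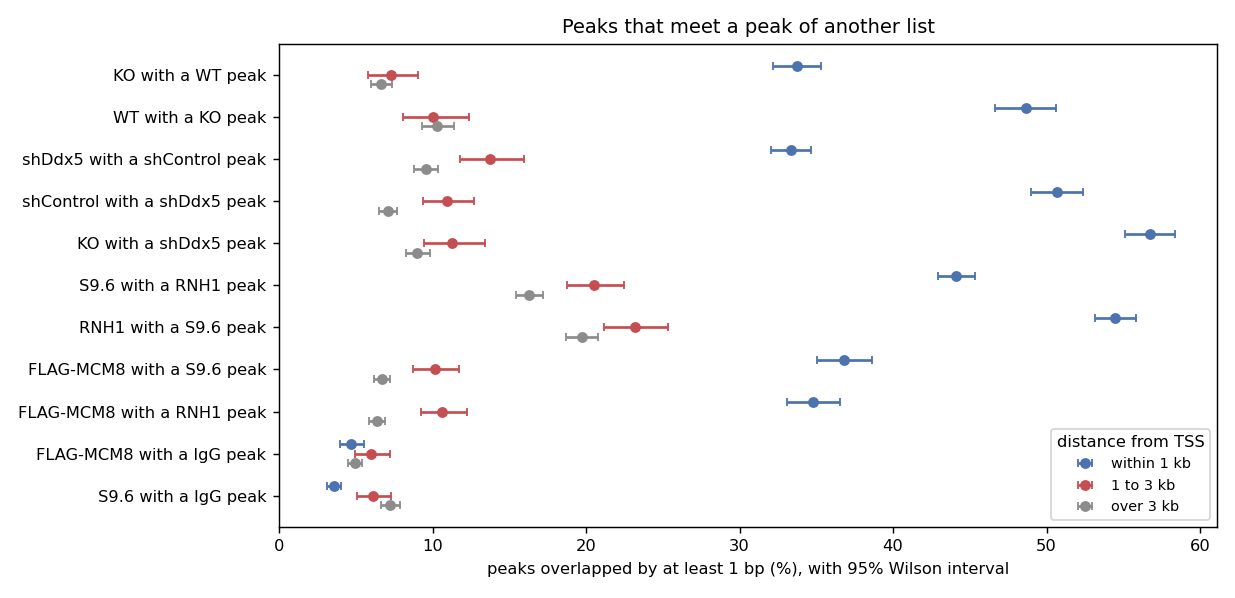
Share of peaks (%) of the first list that overlap a peak of the second by at least 1 bp, with 95% Wilson intervals, for promoter, 1 to 3 kb and distal peaks. Members sit close to distal peaks and far below promoter peaks, except with IgG, where all 3 stay under 8%.

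Overlap rose with the strength of the member. When each list was divided into 4 parts of equal size by −log10 p, KO members met a WT peak in 2.88%, 2.69%, 7.31% and 24.8% of cases from the weakest to the strongest. For shDdx5 with shControl the series was 5.49%, 9.69%, 13.7% and 42.2%, for S9.6 with RNH1 10.6%, 12%, 19.3% and 59.2%, and for FLAG-MCM8 with S9.6 4.18%, 7.01%, 7.48% and 22.7%. In the strongest part distal peaks gave 22.2%, 27.6%, 47.8% and 15.6% in the same order, and promoter peaks 53.8%, 53.5%, 69.8% and 56.4%. In each of these 4 pairs the strongest members met the other list most often. In the strongest part, 18.4% of S9.6 members also met an IgG peak, against 5.13% of promoter peaks.

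**Figure D5:**
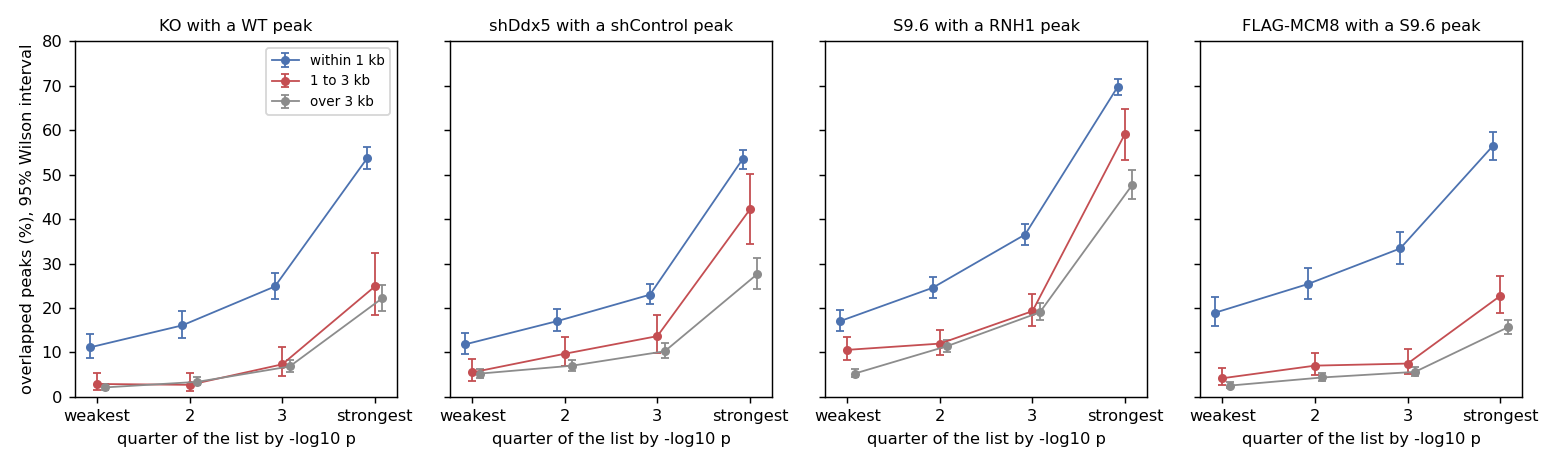
Share of peaks (%) that overlap a peak of the second list, with 95% Wilson intervals, in 4 parts of the first list by −log10 p, for promoter, 1 to 3 kb and distal peaks. Each line is highest in the strongest part, where members range from 22.7% to 59.2%.

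The strongest members were partly those that the controls also had. Of the 20 members with the highest −log10 q, 5 in each of WT, KO, shControl and shDdx5 overlapped a no-antibody peak, and 11 in S9.6, 12 in RNH1 and 11 in FLAG-MCM8 overlapped an IgG peak.

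In MEFs the strongest downstream members lay at Aida, Gm18604 and Sfi1 in all 4 lists made with S9.6. The peak in an intron of Aida, which encodes an axin-binding protein (mm10, chr1:183299161-183299575), had folds of 15.8 in WT, 15.0 in KO, 12 in shDdx5, 15.3 in shControl and 9.38 in no-antibody. The peak downstream of the pseudogene Gm18604 (chr17:36231253-36231608) had folds of 16.2, 19.4, 17, 13.6 and 5.31 in the same order. In an intron of Sfi1, which encodes a centrin-binding protein (chr11:3184304-3186238), they were 3.57, 3.40, 3.75, 4.02 and 4.17. All 3 loci were also peaks with no antibody.

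Upstream members were weaker, and several had no peak in no-antibody. Upstream of Dot1l, the gene of the histone H3K79 methyltransferase, the fold was 5.33 in KO, 4.45 in shDdx5, 3.98 in shControl and 2.83 in WT. Upstream of Slc7a5, a transporter of large neutral amino acids, it was 4.2 in KO, 4.68 in shDdx5 and 3.70 in shControl, with no peak in WT. Slc12a8, a member of a solute carrier family, reached 6.97 in shDdx5, with 3.65 in KO, 3.75 in shControl and no WT peak. At Zfp36, whose product binds AU-rich mRNAs and speeds their decay, the fold was 5.38 in shControl, 3.29 in KO, 3.18 in WT and 2.63 in shDdx5. Traf3, an adaptor of TNF receptor signalling, had 4.71 in shDdx5, 4.95 in shControl, 4.2 in KO and no peak in WT.

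Other loci were among the strongest upstream members. A second Sfi1 place, upstream of another Sfi1 transcript and in a repeat, had folds of 7.92 in WT, 6.50 in KO, 4.86 in shDdx5, 5.31 in shControl and 3.16 in no-antibody. Cttnbp2nl had 5.11 in WT, 4.32 in KO and 3.27 in shDdx5, and the small RNA gene Gm22929 had 5.19 in WT, 3.83 in KO and 3.16 in shControl. Gm37696, a long noncoding RNA gene whose peak lies over a coding exon of Rap2b or B430305J03Rik, had 6.48 in shDdx5, 4.09 in shControl, 4.03 in WT and 3.54 in KO. The strongest upstream members of no-antibody, at Lrrc45 (6.06), Gm2398 (5.65) and Pla2r1 (5.31), and downstream at Gm25781 (5.88), met no peak in the other MEF lists.

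WT members that recurred in KO, shControl and shDdx5 were few. They numbered 32 of 748 (4.28%), against 12.6% of all WT peaks, 29.2% of promoter peaks and 2.44% of distal ones. Of them 27, 10 upstream and 17 downstream, had no peak in no-antibody. These were 3.61% of members, against 11.9% of all WT peaks. The strongest upstream were Gm13036, with folds of 4.81 in WT, 5.92 in KO, 4.58 in shDdx5 and 4.48 in shControl, the noncoding 6030440G07Rik (4.25, 3.59, 5.07 and 3.79 in that order) and the pseudogene Gm21978 (4.08, 3.95, 5.84 and 5.16). Downstream, Pdlim7, a PDZ and LIM domain protein of the cytoskeleton, had 4.35, 5.69, 6.80 and 4.75, and Mnt, a MAX-binding repressor, had 3.98, 4.28, 5.73 and 3.35. Gm18001, a pseudogene within Tecr, had 5.61, 5.03, 4.42 and 3.83. The Gm13036 peak lies in a repeat and Gm21978 is a pseudogene, so reads of near-identical copies may fall there.

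KO members without a WT peak that met a shDdx5 peak without a shControl peak numbered 45 of 977 (4.61%, 3.46 to 6.11), 22 upstream and 23 downstream. All KO peaks gave 8.72%, promoter peaks 16.6% and distal peaks 4.17% (3.66 to 4.75), and the distal interval lies within that of the members. Upstream the strongest were Cuedc1, with a fold of 4.94 in KO and 4.2 in shDdx5, AC091309.7 with 4.65 and 3.51, and Efna5, the gene of an ephrin ligand, with 4.61 and 2.99. Downstream they were Gm47301 with 4.94 and 4.04, Gm47391 with 4.65 and 4.11, and Il17rd, an inhibitor of FGF signalling, with 4.13 and 4.05. The set was chosen by these 4 lists, so its folds are a description.

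In HEK293 the strongest downstream member of S9.6 and of FLAG-MCM8 lay at the pseudogene ENSG00000231961 inside an MCM8 intron (hg38, chr20:5967426-5968037). Its fold was 19.7 in S9.6, 17.7 in RNH1 and 21.6 in FLAG-MCM8, the bounds were the same in all 3 lists, and IgG had no peak there. The −log10 q was 1012 in S9.6, 296 in RNH1 and 3887 in FLAG-MCM8. The label of the S9.6 library names no plasmid. At GH1, the growth hormone gene, a downstream peak (chr17:63916689-63917308) had a fold of 16.1 in RNH1 and 18.1 in IgG, with no peak in S9.6 or FLAG-MCM8, and a −log10 q of 1974 and 8193. These 2 loci divided the 4 libraries in different ways.

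The other leading HEK293 members recurred across lists. Upstream of CCDC183 the fold was 8.07 in S9.6, 7.69 in RNH1 and 8.46 in FLAG-MCM8, with no IgG peak. In the first intron of RPTOR, a subunit of mTORC1, it was 12.3 in S9.6, 11.2 in RNH1, 10.9 in FLAG-MCM8 and 7.67 in IgG. LGR5, a receptor of R-spondins, had 9.76 in FLAG-MCM8 with 5.10 in S9.6, 6.54 in RNH1 and 6.02 in IgG. FAM240C had 12.1 in FLAG-MCM8, 6.58 in S9.6, 8.57 in RNH1 and 4.42 in IgG, and ERC1 11.6 in S9.6, 9.86 in RNH1, 6.04 in FLAG-MCM8 and 10.9 in IgG. At LMF1, a factor of lipase maturation, the folds were 5.21 in S9.6, 6.16 in RNH1, 5.80 in FLAG-MCM8 and 4.36 in IgG. Of these 6, CCDC183 alone lacked an IgG peak.

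Members at the 5S ribosomal RNA genes, which stand in a tandem cluster of near-identical copies, are uncertain, since reads may fall on any copy. RNA5S13 had 3.95 in S9.6, 3.15 in RNH1, 3.44 in FLAG-MCM8 and 2.90 in IgG, RNA5S10 had 3.89, 3.75, 3.17 and 2.90, and RNA5S1 had 4.71, 3.97, 5.32 and 3.77. The noncoding ENSG00000285596 had 8.61 in S9.6, 6.95 in RNH1 and 5.94 in FLAG-MCM8 and no IgG peak. ENSG00000260996 had 4.35 in S9.6, 5.34 in RNH1, 5.06 in FLAG-MCM8 and 4.58 in IgG, and ENSG00000224413 had 7.33, 7.5, 7.20 and 6.41. The pseudogene INHCAP was a peak in IgG only, at 8.52.

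FLAG-MCM8 members that met S9.6 but not IgG numbered 118 of 1589 (7.43%), 55 upstream and 63 downstream. The share was 11.2% of all FLAG-MCM8 peaks, 33.7% of promoter peaks and 4.64% of distal ones. An RNH1 peak as well as an S9.6 peak met 105 members (6.61%), against 9.21% of all FLAG-MCM8 peaks, 27.9% of promoter peaks and 3.73% of distal ones. Beside CCDC183 and ENSG00000231961, the strongest were CYP1B1-AS1, antisense to CYP1B1, with folds of 4.33 in S9.6, 4.5 in RNH1 and 8.75 in FLAG-MCM8, and DPP10, a subunit that modulates potassium channels, with 7.32, 7.19 and 7.65 in that order. Downstream, the amino acid transporter gene SLC38A8 had 8.54, 7.78 and 8.55, and ENSG00000275438 had 5.04, 6.78 and 7.52. All 6 loci also had an RNH1 peak.

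S9.6 members without an RNH1 peak made up most of the S9.6 members, 1463 of 1841 (79.5%). The share was 71.1% of all S9.6 peaks, 55.9% of promoter peaks and 83.7% of distal ones. Among members it was 80.6% upstream and 78.5% downstream. The strongest upstream were CYP2B7P with a fold of 8.04 and DLX6-AS1 with 7.84, and downstream CNFN, a protein of the cornified envelope, with 7.63, the tetraspanin gene TSPAN18 with 7.06 and the ectonucleotidase gene ENTPD8 with 3.79. None of these 5 had a peak in FLAG-MCM8 or IgG either.

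Gene lists were read in the same zone. Of 30 R-loop and helicase genes (29 annotated in mouse), 1 had a member in WT, 0 in KO, 1 in shDdx5, 0 in shControl and 0 in no-antibody, and 1 in S9.6, 2 in RNH1 and 1 in FLAG-MCM8. Of protein-coding genes, 2.21% in WT, 2.94% in KO, 3.11% in shDdx5, 3.83% in shControl and 1.12% in no-antibody had a member, and 5.41% in S9.6, 4.67% in RNH1, 4.24% in FLAG-MCM8 and 5.13% in IgG. The members were at Brca1 in WT (fold 3.04), a homologous recombination gene, at Rnaseh2c in shDdx5 (4.25), a subunit of RNase H2, and at THOC1 in S9.6 (4.58), of the THO complex. The Brca1 member had a q above 0.05. In RNH1 they were in the first intron of RNASEH1 (4.31), the gene of RNase H1, and upstream of RNH1 (2.68). IgG had members at the helicase gene DDX21 (4.12), at FANCD2 (4.15) and at TOP1 (3.85), and FLAG-MCM8 had TOP1 (5.27), the topoisomerase I gene.

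Cell cycle genes gave small counts too: of 30, 2 had a member in WT, 1 in shControl and 0 in KO, shDdx5 and no-antibody, and 2 in S9.6, 3 in RNH1, 1 in FLAG-MCM8 and 1 in IgG. The D cyclin genes were Ccnd1 in WT (3.56), Ccnd2 in WT (3.63) and shControl (2.85), and CCND3 in S9.6 (3.92) and RNH1 (4.06). The Ccnd1 and Ccnd2 members had a q above 0.05. E2F2, a transcription factor of S phase entry, had 3.49 in S9.6 and 3.36 in RNH1. The licensing factor gene CDT1 had 4.02 in FLAG-MCM8 and 2.64 in RNH1, and the deubiquitinase gene USP37 4.70 in IgG.

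Immediate-early genes, which stimuli switch on within minutes, had the highest count of the gene lists read in KO, shDdx5, shControl and RNH1, and not in the other 5 peak lists. Of 28 annotated, 1 had a member in WT, 5 in KO, 4 in shDdx5, 4 in shControl and 0 in no-antibody, and 2 in S9.6, 4 in RNH1 and 0 in FLAG-MCM8 and IgG. Of the same 28, 6 had a promoter peak in WT, 12 in KO, 17 in shDdx5, 11 in shControl and 0 in no-antibody. Over all protein-coding genes the share with a promoter peak was 11.3% in WT, 16% in KO, 23.1% in shDdx5, 14.7% in shControl and 1.24% in no-antibody. Zfp36, given above, was a member in all 4 lists made with S9.6. The AP-1 genes were Fosl1, with 3.09 in KO, 3.95 in shDdx5 and 3.40 in shControl, Fosb with 2.99 in KO and 2.56 in shControl, and Junb with 3.20 in KO and 3.0 in shDdx5. Nr4a1, a nuclear receptor, had 2.91 in KO, and Atf3, a stress-induced factor, had 3.41 in shDdx5 and 3.73 in shControl. In HEK293, FOS had 3.95 in S9.6 and 3.85 in RNH1, EGR2 4.33 in S9.6, and ZFP36L1 (4.56), BTG2 (4.15) and FOSB (3.26) were in RNH1. KO had members at 5 of these genes where WT had 1, but shControl had 4. Several had a q above 0.05. In KO the −log10 q was 0.804 at Fosb, 0.804 at Fosl1 and 1.06 at Nr4a1. In shControl it was 0.281 at Fosb and 1.12 at Atf3, and in shDdx5 1.29 at Atf3 and 0.653 at Zfp36. In MEFs, those with a q of 0.05 or lower were Junb and Zfp36 in KO, Zfp36 in WT, and Fosl1 and Zfp36 in shControl. In shDdx5 they were Junb and the upstream Fosl1 member, with a −log10 q of 2.42 and 3.53. All the HEK293 members named here had a q of 0.05 or lower.

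Of long noncoding and host RNA genes, 1 had a member in each of WT, KO, shControl, S9.6, RNH1 and FLAG-MCM8, of 16 annotated in mouse and 19 in human. Over all long noncoding RNA genes the share with a member was 1.2% in WT, 1.40% in KO, 1.88% in shControl, 1.90% in S9.6, 1.51% in RNH1 and 1.91% in FLAG-MCM8. Downstream of Malat1, a nuclear RNA, the fold was 2.95 in WT and 3.18 in KO, and the peaks that met it in shControl (3.30) and shDdx5 (4.12) lay outside the zone or nearer to another TSS. The Malat1 members of WT and KO had a q above 0.05. Neat1, the scaffold of paraspeckles, had 2.77 in shControl, MIR22HG, the host of a microRNA, 4.29 in S9.6 and 3.83 in RNH1, and the imprinted H19 had 4.81 in FLAG-MCM8.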

How the data were processed

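CUT&Tag peak lists of 9 libraries, 1 per group as labelled, were analysed. The authors trimmed the reads, aligned them with bowtie2 to mm10 or hg38 and called peaks per library with MACS2 (2.1.2 in the submitters' processing notes), and gave the MEF calls no input from the no-antibody library. The calling threshold and the handling of duplicates are not given in the sources used here.

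For each peak the authors deposited a fold, that is, the ratio of the summit pileup to the local background, the −log10 of its p and of its q, a score that repeats the −log10 p and was not used, and the summit offset. Fold and −log10 p together gave whole-number pileups, and the lowest background over the shortest peak gave relative fragments per Mb. Peaks on the mitochondrial genome were left out (9 in S9.6, 7 in RNH1, 8 in FLAG-MCM8, 6 in IgG). These values were not compared peak by peak as amounts between lists.

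Peaks were placed by their midpoint. Overlap meant at least 1 bp in common. Shares have Wilson intervals, differences of shares Newcombe intervals and ratios of counts Poisson intervals on the log scale. The genome zone was read at points 100 bp apart, and 1000 bp apart for base composition, gene type, place in the transcript and position inside the own gene. Overlap counting, zones and pileups were tested on simulated data. Loci named were the 3 upstream and 3 downstream members with the highest −log10 q in each list and in each of 4 sets, and members of the gene lists, up to 4 a list and cell type by −log10 q; FANCD2, THOC1, RNH1, FOSB, Fosb and Nr4a1 complete counts and were named after their values were seen. A few loci that this rule names, and counts that include them, are not reported here. The members and lists were chosen with earlier results of these data known. Alternatives are given in the closing section. Figures were drawn with matplotlib 3.10.9, and values computed with scipy 1.17.1, pandas 2.3.3 and numpy 2.4.6 in Python 3.11.15.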

Additional observations from a re-analysis of the deposited data

How the results depend on the processing

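No paired analysis was possible because each group holds 1 library, and for the same reason no replicate could be left out. Of 111 alternative values, 58 stayed within the counting interval of the reported value, 48 moved outside it, and 5, of differences or ratios whose interval did not hold equality, changed direction. The FLAG-MCM8 minus IgG and RNH1 minus S9.6 shares, whose intervals held 0, also changed sign, the latter to -0.0417 points with a fold of at least 4, and downstream shares crossed 50% in shDdx5 and no-antibody. The cause was not tested. At a q of 1e-05 or lower, few MEF members were left, and the KO minus WT share was 0.313 points, the FLAG-MCM8 minus IgG share -0.450 points, the KO over WT ratio 2.0 and the shDdx5 over shControl ratio 3.44. Overlap was then 38.9% for KO with WT, 22.6% for shDdx5 with shControl, 23.6% for S9.6 with RNH1 and 14.6% for FLAG-MCM8 with S9.6, and the downstream share 88.9% in WT, 50% in KO, 88.9% in shControl, 48.4% in shDdx5, 100% in no-antibody (1 member) and 51.2% in IgG. With a fold of at least 4, the share differences were -0.314 (KO minus WT) and -3.52 points (shDdx5 minus shControl), the ratios 1.56 (KO over WT) and 0.744 (RNH1 over S9.6), and the overlaps 9.49% (KO with WT), 14.9% (S9.6 with RNH1) and 6.40% (FLAG-MCM8 with S9.6). At a q of 0.05 or lower, a setting chosen after seeing the data, the KO minus WT share was -0.215 points, the KO over WT ratio 1.59, the shDdx5 over shControl ratio 1.52 and the KO with WT overlap 12.5%. With the same number of strongest peaks, the shDdx5 minus shControl share was -4.68 points, the ratios 0.771 (KO over WT), 0.539 (shDdx5 over shControl) and 1.08 (RNH1 over S9.6), and the overlaps 12.3% (KO with WT), 25% (shDdx5 with shControl) and 23.5% (S9.6 with RNH1). Those ratios compare lists made equal in size, so they restate the shares alone. With gene-record starts, the shDdx5 minus shControl share was -0.239 points and the ratio 0.932, the 4 overlaps 12.6%, 18%, 25.4% and 14.2% in the order above, and the downstream share 57.7% in WT, 61.2% in shDdx5, 59.2% in S9.6 and 54.9% in FLAG-MCM8. With protein-coding transcripts only, the downstream share was 57.4% in shControl, 62.0% in shDdx5, 53.3% in no-antibody, 56.6% in FLAG-MCM8 and 56.0% in IgG. With control peaks left out, overlap was 17.5% (S9.6 with RNH1) and 7.76% (FLAG-MCM8 with S9.6). With an overlap of 50% or more of each peak, the 4 overlaps were 4.5%, 9.23%, 13.4% and 6.61%. Pileups of 9 to 10 fragments at a median MEF member limit how firmly an absent overlap can be read.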

Other observations

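Most members stood alone at their gene. The WT members were nearest to 732 genes, 14 of which had 2 or more members, and the S9.6 members to 1730 genes, 98 of which had 2 or more. These genes were chosen after their values were seen. The highest number was 4 members, at KCNT1, a potassium channel gene, in S9.6. Ccdc6 had 3 in WT, TRIO, a guanine nucleotide exchange factor gene, 3 in RNH1, and PLOD1, a collagen lysyl hydroxylase gene, 3 in FLAG-MCM8. POLA1, the gene of the catalytic subunit of DNA polymerase alpha, had 3 in IgG. A second peak within 1 kb was seen for 0.463% to 4.69% of the members of a list.

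In mouse, the summits of members lay in soft-masked repeats in 18.4% of cases in WT, 15.0% in KO, 20.3% in shControl, 16.4% in shDdx5 and 27.1% in no-antibody, against 31.4% of the mouse genome 1 to 3 kb from a TSS. Promoter peaks of the MEF lists made with S9.6 lay in repeats in 5.61% to 7.37% of cases.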
